A study of Mus musculus with 8 samples.

Results

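The genes followed here store, sense and move zinc. They are the metallothioneins Mt1, Mt2 and Mt3, the metal-responsive transcription factor Mtf1, the zinc exporters Slc30a1, Slc30a4 and Slc30a5, and the zinc importers Slc39a1 and Slc39a10. Members were chosen by gene symbol, through the RefSeq transcript on which each probe set of the deposited table was built, and probe sets with identical values were counted once. All 9 were found, with 1 probe set each, among 15653 named genes.

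After 48 h with 65 µM ZnCl2 in the medium, RNA of 3 cloned mouse lines was measured on 8 Affymetrix arrays, each hybridized with an independent preparation. Ind-8 cells (the ASYM state, 3 arrays) are p53-null fetal fibroblasts carrying a p53 cDNA under a modified human metallothionein promoter, so that zinc turns p53 on and the cells shift to asymmetric self-renewal. Con-3 cells (SYM, 3 arrays) are p53-null and received the promoter vector without the cDNA, although the sample labels describe Con-3 as the line from which Ind-8 was made. tI-3 cells (p53SYM, 2 arrays) are Ind-8 derivatives that also carry a constitutive IMPDH II cDNA and keep dividing symmetrically while p53 is induced. All media held dialyzed serum and puromycin at 5 µg/ml, and tI-3 cells were also given G418, at a dose that the labels and the methods give differently. Each state is 1 clone, so line, state and clone cannot be told apart, and in tI-3 neither can the G418. Cultures without added zinc were not analysed here, so every value is a level in zinc medium and the response to zinc itself was not measured.

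Metallothioneins are small cysteine-rich proteins that bind zinc and copper and buffer the free metal of the cytosol. When free zinc rises, the zinc-finger factor MTF1 binds metal response elements in DNA and switches on Mt1, Mt2 and the plasma-membrane exporter gene Slc30a1. Exporters of the ZnT family (Slc30 genes) carry zinc out of the cytosol, across the plasma membrane or into vesicles and the secretory pathway, and importers of the ZIP family (Slc39 genes) carry it in.

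The promoters of Mt1, Mt2 and Slc30a1, the textbook targets of MTF1, and of Slc30a4, an exporter that differed between the lines, are shown because the core of the metal response element can be read in them. RefSeq promoter windows of build GRCm38.p6, from 250 bases before to 50 bases after an annotated start, matched all 9 genes with 10 windows, since Slc39a10 has 2. The words TGCACNC and TGCGCNC, which differ in 1 letter, were searched on both strands and are in capitals. The windows are chr8:94178839-94179138 for Mt1, chr8:94172368-94172667 for Mt2 and chr1:191906531-191906830 for Slc30a1, all on the + strand, and chr2:122702614-122702913 for Slc30a4, on the - strand.
Mt1 promoter: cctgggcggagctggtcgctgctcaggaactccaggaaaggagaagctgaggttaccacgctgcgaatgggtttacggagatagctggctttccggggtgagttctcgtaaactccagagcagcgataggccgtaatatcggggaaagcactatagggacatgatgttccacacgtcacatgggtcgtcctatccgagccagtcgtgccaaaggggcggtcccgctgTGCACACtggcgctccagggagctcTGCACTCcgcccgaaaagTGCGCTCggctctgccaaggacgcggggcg
Mt2 promoter: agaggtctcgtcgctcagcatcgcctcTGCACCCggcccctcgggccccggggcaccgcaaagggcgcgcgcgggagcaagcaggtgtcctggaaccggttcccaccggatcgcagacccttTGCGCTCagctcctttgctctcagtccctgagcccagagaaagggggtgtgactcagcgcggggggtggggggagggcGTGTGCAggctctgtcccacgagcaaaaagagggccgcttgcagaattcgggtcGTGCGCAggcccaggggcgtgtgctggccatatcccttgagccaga
Slc30a1 promoter: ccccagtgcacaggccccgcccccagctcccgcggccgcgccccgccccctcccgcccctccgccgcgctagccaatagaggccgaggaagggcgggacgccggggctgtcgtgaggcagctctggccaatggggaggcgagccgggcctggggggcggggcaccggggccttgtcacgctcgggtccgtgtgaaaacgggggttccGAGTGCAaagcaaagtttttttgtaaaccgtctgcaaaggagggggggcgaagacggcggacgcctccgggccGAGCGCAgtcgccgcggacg
Slc30a4 promoter: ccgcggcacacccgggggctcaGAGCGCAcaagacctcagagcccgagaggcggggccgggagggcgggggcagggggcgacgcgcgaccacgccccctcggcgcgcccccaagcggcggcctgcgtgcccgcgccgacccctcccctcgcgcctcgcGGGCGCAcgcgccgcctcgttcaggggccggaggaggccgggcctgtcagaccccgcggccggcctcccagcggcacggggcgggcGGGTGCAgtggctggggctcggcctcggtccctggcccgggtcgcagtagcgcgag

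Mt2 held 4 matches, Mt1 and Slc30a4 held 3 each, Slc30a1 held 2, and Mt3 and Slc30a5 held 1 each. In the windows of Mtf1, Slc39a1 and Slc39a10 these letters were not found. By the calls given below, Slc39a1 and Slc39a10 differed between lines without a match, and Mt2 and Slc30a4 differed with matches. Mt1, Mt3, Slc30a1 and Slc30a5 held matches and were not called. A link between matches and levels was not tested. Among all 32851 windows of the same length, 25.7% held at least 1 match, 7.11% at least 2, 1.97% at least 3 and 0.517% at least 4. At least 1 match was held by 6 of 9 members, in 6 of 10 windows. Of 16 other metallothionein, ZnT and ZIP genes with windows, 9 held a match, in 10 of 20 windows. Of the 4 printed windows, those of Mt1 and Slc30a1 hold the point, upstream of the start used, where the RefSeq gene record opens, so more than their last 50 bases lies within the gene record. Further annotated starts of these genes were not searched, and a match is a description of the letters, not of binding.

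The labels were checked first on genes that the lines should differ in. Cdkn1a, a p53 target that blocks the cell cycle, had log2 levels of 9.70, 9.70 and 9.59 on the Ind-8 arrays, 5.73, 5.81 and 6.03 on the Con-3 arrays and 7.55 and 7.33 on the tI-3 arrays. Mdm2, the p53 target that limits p53, averaged 10.90 ± 0.26 (SD, n = 3), 8.90 ± 0.12 (SD, n = 3) and 9.62 ± 0.08 (SD, n = 2) in the same order. Both genes were higher on every Ind-8 array than on every tI-3 array, and higher on every tI-3 array than on every Con-3 array. Trp53 transcripts were higher in Ind-8 than in Con-3 cultures by 0.53 on the log2 scale (standard error 0.0873, limma adjusted p = 0.00192), and by 0.39 in tI-3 than in Con-3 cultures (adjusted p = 0.0144), the latter not called without tI-3 replicate 2 (0.34, adjusted p = 0.109) or with the block for hybridization controls described below, the control block (0.38, adjusted p = 0.101). Impdh2, the gene of IMPDH II, stood at 12.16, 12.19 and 12.22 on the Ind-8 arrays, 12.51, 12.56 and 12.53 on the Con-3 arrays and 12.34 and 12.38 on the tI-3 arrays. Both tI-3 arrays lay above every array of Ind-8, from which tI-3 was made, and below every Con-3 array. Impdh2 was lower in Ind-8 than in Con-3 (−0.34, adjusted p = 0.0108), while Ind-8 against tI-3 (−0.17, adjusted p = 0.163) and tI-3 against Con-3 (−0.17, adjusted p = 0.182) were not called. After the arrays were quantile-normalized again these 2 were −0.29 (adjusted p = 0.0624) and −0.07 (adjusted p = 0.659). The paper describes IMPDH II as raised in p53SYM cells over SYM cells, an order that these Impdh2 levels did not show. Whether the probes of Impdh2 or Trp53 match the added cDNAs is not known. Of 8 fibroblast markers 7 lay above 4.30, the 25th percentile of mean levels over all probe sets, which is called the dim end below, and Thy1 did not. Vim was the most abundant of them. Above the dim end lay 2 of 5 epithelial, 1 of 4 endothelial, 2 of 4 blood cell and 1 of 4 neural markers. The most abundant of these lists were Cldn4, Kdr, Cd3e and Syp, and the median level of each list stayed between 3.87 and 4.86 on every array. The summed levels (log2) of 3 of these lists were nevertheless highest on both tI-3 arrays. They were 7.02 and 6.98 there against 6.58 to 6.74 elsewhere for the blood cell markers, 7.15 and 7.26 against 6.58 to 7.01 for the endothelial markers and 6.74 and 6.88 against 6.49 to 6.69 for the epithelial markers. The summed fibroblast markers stood at 15.12, 15.24 and 15.26 (log2) in Ind-8, 14.77, 14.90 and 14.97 in Con-3 and 14.71 and 14.69 in tI-3, so both tI-3 arrays were lowest. In Ind-8 against tI-3, 5 of 8 fibroblast markers were called higher and 1 lower (all probe sets 15.6% and 15.5%), in tI-3 against Con-3 3 higher and 3 lower (10.2% and 15.1%), and in Ind-8 against Con-3 2 higher and 1 lower (10.9% and 11.0%). In Ind-8 against tI-3 the control block called 2 (all probe sets 3.14%). When the arrays were quantile-normalized again 5 were called (25.5%), and the difference of Vim went from 0.39 to 0.08 (adjusted p = 0.513). Those of Col3a1 (2.42, then 2.35), Pdgfra (1.51, then 1.49) and Col1a1 (1.49, then 1.36) stayed called after it. Of the 4 blood cell markers 3 were called lower in Ind-8 than in tI-3, but 1 after that normalization (all probe sets 25.5%) and 0 with the control block (3.14%). In tI-3 against Con-3 1 was called higher, Cd3e (0.42, adjusted p = 0.0132), also after that normalization (0.37, adjusted p = 0.0195). That call did not hold with the control block (0.35, adjusted p = 0.133) or with every array left out in turn. Kdr, the most abundant endothelial marker, was lower in Ind-8 than in tI-3 by a difference of −0.76 (adjusted p = 0.000877), a call that held with each array left out (highest adjusted p = 0.0153) and after that normalization (−0.83) but not with the control block (−0.63, adjusted p = 0.0956). Kdr was also called in Ind-8 against Con-3 (−0.32) and in tI-3 against Con-3 (0.44). Neither of these calls held with the control block or with every array left out in turn. Of the 4 neural markers, Tubb3 was higher (0.39) and Syp lower (−0.47) in Ind-8 than in tI-3, Syp not after that normalization and neither with the control block. Tubb3 was lower in tI-3 than in Con-3 (−0.52), also with the control block (−0.63, adjusted p = 0.0329). None of these calls of Tubb3 and Syp held with every array left out in turn, and the mean of Tubb3, 4.13, lies below the dim end. No epithelial marker was called. The part of the marker lists in the members' differences was not tested. In such cultures, fewer cells with a transcript and less of it per cell cannot be told apart.

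The arrays themselves also differed, in array-wide levels and in controls. The part of this in the members' differences was not tested beyond the alternative fits below. The 25th percentile of all levels was 4.39 and 4.43 on the tI-3 arrays and 4.19 to 4.38 on the others, and the 99th percentile was 11.99 and 11.91 on the tI-3 arrays and 12.06 to 12.13 on the others. The tI-3 arrays were thus highest at the 25th and lowest at the 99th percentile, though Con-3 replicate 3 was close to them at the former and, at the 10th percentile, stood at 3.75 between their 3.74 and 3.78. Mt1 and Mt2 lie above the 99th percentile while Mt3 lies near the dim end. The 18 hybridization-control probe sets averaged 10.44 on Con-3 replicate 3 and 10.24 and 10.46 on the tI-3 arrays, against 9.88 to 10.00 on the other 5 arrays. Con-3 replicate 3 also stood apart on an 18S rRNA control, at 11.38 against 6.59 to 7.67 elsewhere. On tI-3 replicate 2 the bright controls were low at both ends of the transcripts. Actb stood at 14.19 (3′) and 14.12 (5′) against 14.43 to 14.55 and 14.24 to 14.47 on the other arrays, and Gapdh at 13.57 and 13.78 against 13.87 to 14.06 and 14.07 to 14.25. A fit that sets these higher and lower arrays apart, named the control block below, therefore rests on Con-3 replicate 3 as the only link between the tI-3 arrays and the rest. For tI-3 against Con-3 that fit compares 2 tI-3 arrays with this 1 array, and takes the spread from the other arrays. No level of these controls holds both Ind-8 and tI-3 arrays, so no value within a level exists for that pair. Without Con-3 replicate 3, the members called in each comparison below numbered as many as with it.

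**Figure D1:**
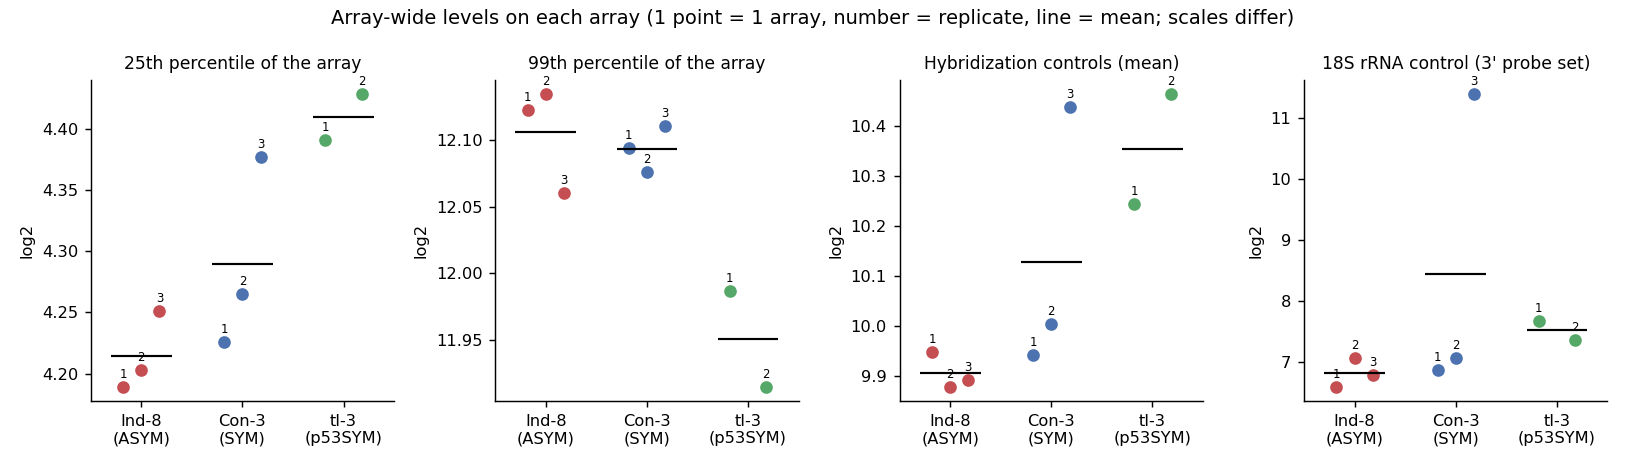
Log2 level of the 25th percentile, the 99th percentile, the mean hybridization control and an 18S rRNA control on each of the 8 arrays, by line (points are arrays numbered by replicate, horizontal lines are means). The tI-3 arrays lie highest at the 25th and lowest at the 99th percentile, and Con-3 replicate 3 stands at 11.38 on the 18S rRNA control.

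A probe set was called when its limma p, adjusted by Benjamini-Hochberg over 22523 probe sets, was under 0.05. In the A comparison, Ind-8 against Con-3, limma called 0 of the 9 members, while it called 21.9% of all probe sets, 10.9% higher and 11.0% lower in Ind-8. At an unadjusted p under 0.05 there was 1 member, Slc39a1. In the B comparison, Ind-8 against tI-3, 3 of 9 were called, with Slc39a1 higher and Slc30a4 and Slc39a10 lower in Ind-8. Of all probe sets 31.1% were called there, 15.6% higher and 15.5% lower in Ind-8. In the C comparison, tI-3 against Con-3, 3 of 9 were called, with Slc30a4 and Slc39a10 higher and Mt2 lower in tI-3, against 25.4% of all probe sets, 10.2% higher and 15.1% lower in tI-3. The shares of members called in B and C were thus near those of all probe sets. The rank product test of the study's methods, at a percentage of false positives (pfp) under 0.05, called 0 of 9 in each comparison, and of all probe sets 3.58% in A, 1.96% in B and 2.30% in C. In A, B and C, limma called 0, 3 and 2 members after the arrays were quantile-normalized again (22.2%, 25.5% and 23.8% of all probe sets), 0, 0 and 1 with the control block (16.2%, 3.14% and 13.6%) and 0, 3 and 3 with a replicate block (23.9%, 37.0% and 28.3%). The median size of the members' log2 difference, with all probe sets in brackets, was 0.10 (0.16) in A, 0.25 (0.24) in B and 0.17 (0.21) in C. These comparisons share arrays and are not independent of each other.

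**Figure D2:**
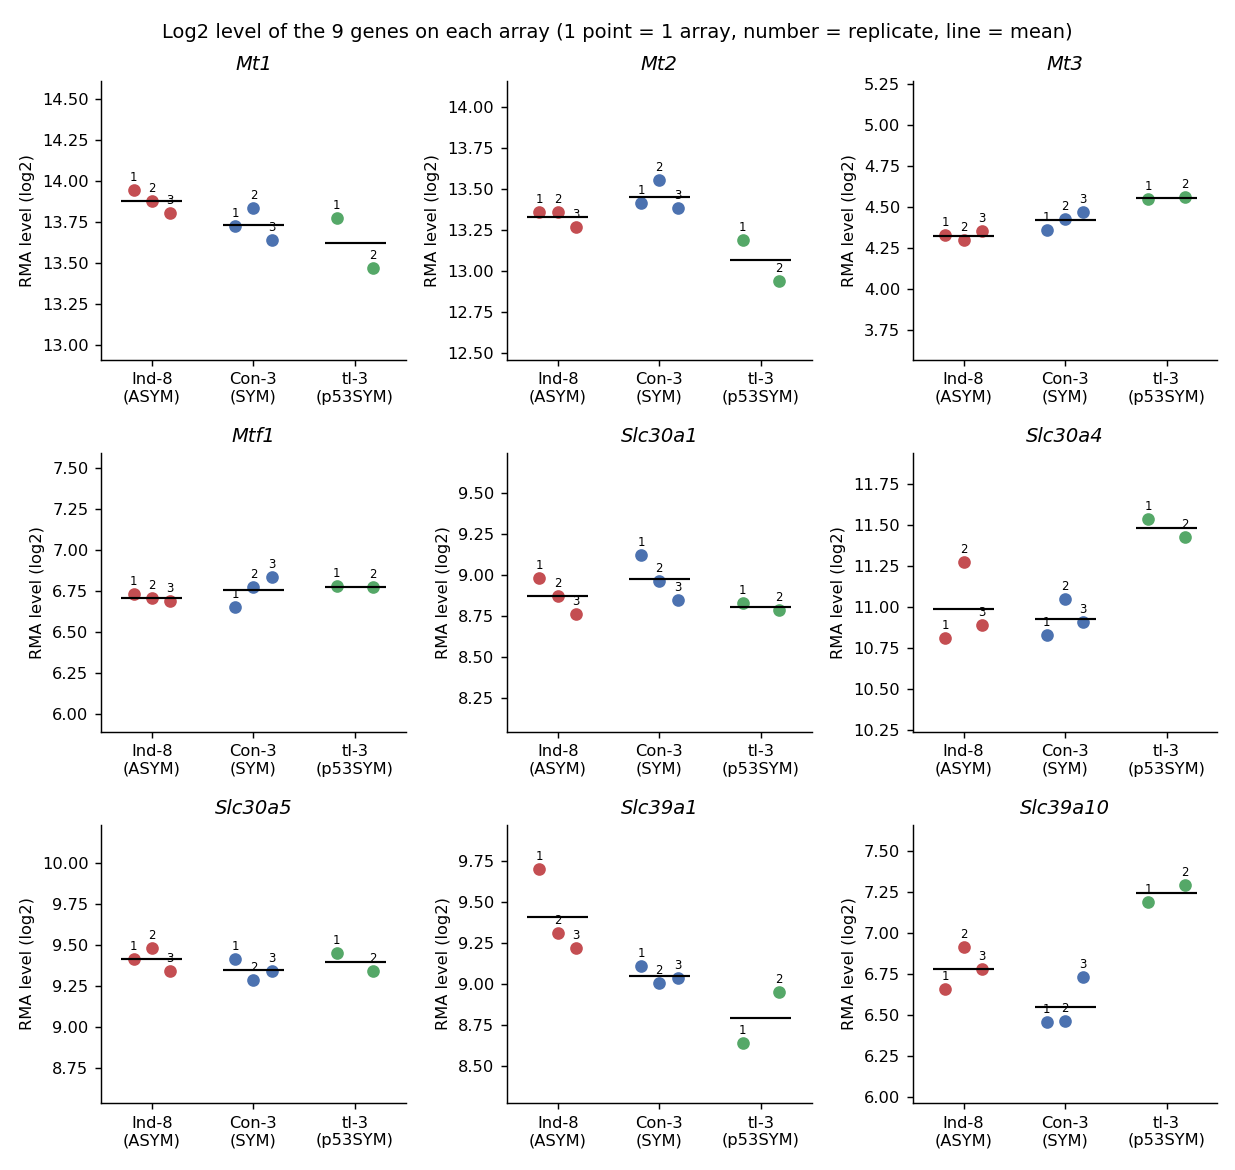
Log2 level of each of the 9 genes on each array, by line (points are arrays numbered by replicate, horizontal lines are means, and all panels span the same log2 range). Slc30a4 and Slc39a10 lie highest on both tI-3 arrays, Slc39a1 lies highest on the Ind-8 arrays, and Mtf1 and Slc30a5 vary by 0.19 in all.

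Mt1, the main inducible metallothionein with Mt2, stood at 13.95, 13.88 and 13.81 on the Ind-8 arrays, 13.72, 13.83 and 13.64 on the Con-3 arrays and 13.77 and 13.47 on the tI-3 arrays. Its highest values were on Ind-8 arrays and its lowest on tI-3 replicate 2, and Ind-8 overlapped with Con-3 but not with tI-3. The order of the means was Ind-8 (13.88 ± 0.07), Con-3 (13.73 ± 0.10) and tI-3 (13.62 ± 0.22), and no pair was called. The difference was 0.14 in A (95% interval −0.09 to 0.38), 0.25 in B (−0.0043 to 0.51, adjusted p = 0.119) and −0.11 in C (−0.37 to 0.15). After the arrays were quantile-normalized again, the signs in B (−0.09) and C (0.20) turned. The B difference was 0.41 without tI-3 replicate 1, 0.10 without tI-3 replicate 2 and 0.11 with the control block, and C turned to 0.04 without tI-3 replicate 2.

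Mt2, the neighbouring gene on chromosome 8, stood at 13.36, 13.36 and 13.27 in Ind-8, 13.41, 13.56 and 13.38 in Con-3 and 13.19 and 12.94 in tI-3. Every tI-3 array lay below every other array, tI-3 replicate 2 lowest, and every Con-3 array lay above every Ind-8 array. Mt2 was lower in tI-3 than in Con-3 by a log2 difference of −0.39 (standard error 0.108, 95% interval −0.63 to −0.15, adjusted p = 0.0248). That call was lost after quantile normalization (−0.18, adjusted p = 0.253), with the control block (−0.32, adjusted p = 0.198), without tI-3 replicate 2 (−0.26, adjusted p = 0.217) and without Con-3 replicate 2 (−0.33, adjusted p = 0.0867). The difference was −0.12 in A (−0.33 to 0.09, adjusted p = 0.431, or −0.07 without Con-3 replicate 2) and 0.27 in B (0.03 to 0.51, adjusted p = 0.0842), neither of them called. With an intensity trend in the limma prior the B difference passed the threshold (adjusted p = 0.0421). It was smaller after quantile normalization (0.07), with the control block (0.16) and without tI-3 replicate 2 (0.14). The lower 99th percentile of the tI-3 arrays and the low Actb and Gapdh controls of tI-3 replicate 2 moved with these levels, and their part in the result was not tested beyond the second normalization and the fit without that array.

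Mt3, a metallothionein best known from brain, stood at 4.33, 4.30 and 4.35 in Ind-8, 4.36, 4.43 and 4.47 in Con-3 and 4.55 and 4.56 in tI-3. All of these values lie close to the dim end, and the lines did not overlap, with Ind-8 lowest and tI-3 highest. No difference was called, with −0.09 in A, −0.23 in B (adjusted p = 0.0761) and 0.13 in C (adjusted p = 0.305), and after quantile normalization they were −0.02, −0.03 and 0.01.

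Mtf1, the sensor, stood at 6.74, 6.71 and 6.69 in Ind-8, 6.65, 6.77 and 6.84 in Con-3 and 6.78 and 6.77 in tI-3. The Con-3 arrays spanned all the others, and the whole range over 8 arrays was 0.19. The 95% intervals of its differences ran from −0.23 to 0.14 in A, from −0.28 to 0.14 in B and from −0.19 to 0.23 in C. The activity of MTF1 was not measured.

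Slc30a1, the plasma-membrane exporter ZnT1, stood at 8.98, 8.87 and 8.76 in Ind-8, 9.12, 8.96 and 8.84 in Con-3 and 8.83 and 8.79 in tI-3. Ind-8 overlapped with both other lines, Con-3 replicate 1 was highest, and both tI-3 arrays lay below every Con-3 array. No difference was called, at −0.10 in A (95% interval −0.33 to 0.12), 0.07 in B (−0.18 to 0.32) and −0.17 in C (−0.42 to 0.08), and the sign in B turned after quantile normalization (−0.08) and with the control block (−0.13). Over the 17 limma fits, main and alternative, the differences of Slc30a1 ran from −0.17 to −0.03 in A, from −0.13 to 0.13 in B and from −0.24 to −0.04 in C.

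Slc30a4, or ZnT4, which loads zinc into vesicles and into milk, stood at 10.81, 11.27 and 10.89 in Ind-8, 10.83, 11.05 and 10.91 in Con-3 and 11.54 and 11.43 in tI-3. Both tI-3 arrays were above all others, while Ind-8 and Con-3 overlapped and Ind-8 replicate 2 was the nearest to tI-3. The difference was 0.55 in C (standard error 0.141, 95% interval 0.24 to 0.87, adjusted p = 0.0161) and −0.49 in B (standard error 0.141, −0.80 to −0.18, adjusted p = 0.0249). Both were larger after quantile normalization, at 0.66 (adjusted p = 0.00675) and −0.60 (adjusted p = 0.0111). With the control block they kept their size, at 0.57 and −0.52, but not the call (adjusted p = 0.0922 and 0.295). The call in C was lost without tI-3 replicate 1 (0.50, adjusted p = 0.0956) or 2 (0.61, adjusted p = 0.0625). In B it was lost without tI-3 replicate 1 (−0.44, adjusted p = 0.118) or 2 (−0.54, adjusted p = 0.0861) and without Ind-8 replicate 1 (−0.40, adjusted p = 0.0747) or 3 (−0.44, adjusted p = 0.0627). With 1 tI-3 array left, the fit takes that line's spread from the other lines. In A the difference was 0.06 (−0.22 to 0.34).

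Slc30a5, or ZnT5, which supplies zinc to the early secretory pathway, stood at 9.41, 9.48 and 9.34 in Ind-8, 9.41, 9.28 and 9.34 in Con-3 and 9.45 and 9.34 in tI-3. The 3 lines overlapped throughout. Its differences were 0.06 in A (95% interval −0.13 to 0.26), 0.02 in B (−0.20 to 0.23) and 0.05 in C (−0.17 to 0.26).

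Slc39a1, or ZIP1, a widely expressed importer of the plasma membrane, stood at 9.70, 9.31 and 9.22 in Ind-8, 9.11, 9.01 and 9.04 in Con-3 and 8.64 and 8.95 in tI-3. The lines did not overlap, Ind-8 being highest and tI-3 lowest, and Ind-8 replicate 1 and tI-3 replicate 1 were the extremes. Slc39a1 was higher in Ind-8 than in tI-3 by 0.62 (standard error 0.149, 95% interval 0.29 to 0.95, adjusted p = 0.0118), and by 0.49 after quantile normalization (adjusted p = 0.0354). The call was lost without tI-3 replicate 1 (0.46, adjusted p = 0.0942) and with the control block (0.60, adjusted p = 0.251). Its neighbours in that order were not called apart, at 0.36 in A (0.07 to 0.66, adjusted p = 0.0812) and −0.26 in C (−0.59 to 0.07, adjusted p = 0.24). The A difference passed the threshold without Ind-8 replicate 3 (0.46, adjusted p = 0.0492) and was smaller without Ind-8 replicate 1 (0.22, adjusted p = 0.247). In C it was −0.15 after quantile normalization, −0.10 without tI-3 replicate 1 and −0.41 without tI-3 replicate 2.

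Slc39a10, or ZIP10, an importer whose gene MTF1 is known to repress, stood at 6.66, 6.92 and 6.78 in Ind-8, 6.46, 6.47 and 6.73 in Con-3 and 7.19 and 7.30 in tI-3. Both tI-3 arrays were above all others, and Con-3 replicate 3 lay among the Ind-8 arrays. Slc39a10 rose from Con-3 to tI-3 by 0.69 (standard error 0.12, 95% interval 0.43 to 0.96, adjusted p = 0.00226), or 1.62-fold. This call held with each array left out in turn (highest adjusted p = 0.0289), after quantile normalization (0.80, adjusted p = 0.00164) and with the control block (0.51, adjusted p = 0.0442). It was lower in Ind-8 than in tI-3 by a log2 difference of −0.46 (standard error 0.12, −0.73 to −0.19, adjusted p = 0.0171), or −0.60 after quantile normalization (adjusted p = 0.00753). That call was lost with the block (−0.19, adjusted p = 0.616), without Ind-8 replicate 1 (−0.40, adjusted p = 0.0531) and without tI-3 replicate 2 (−0.41, adjusted p = 0.119). The A difference was 0.23 (−0.01 to 0.47, adjusted p = 0.161).

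**Figure D3:**
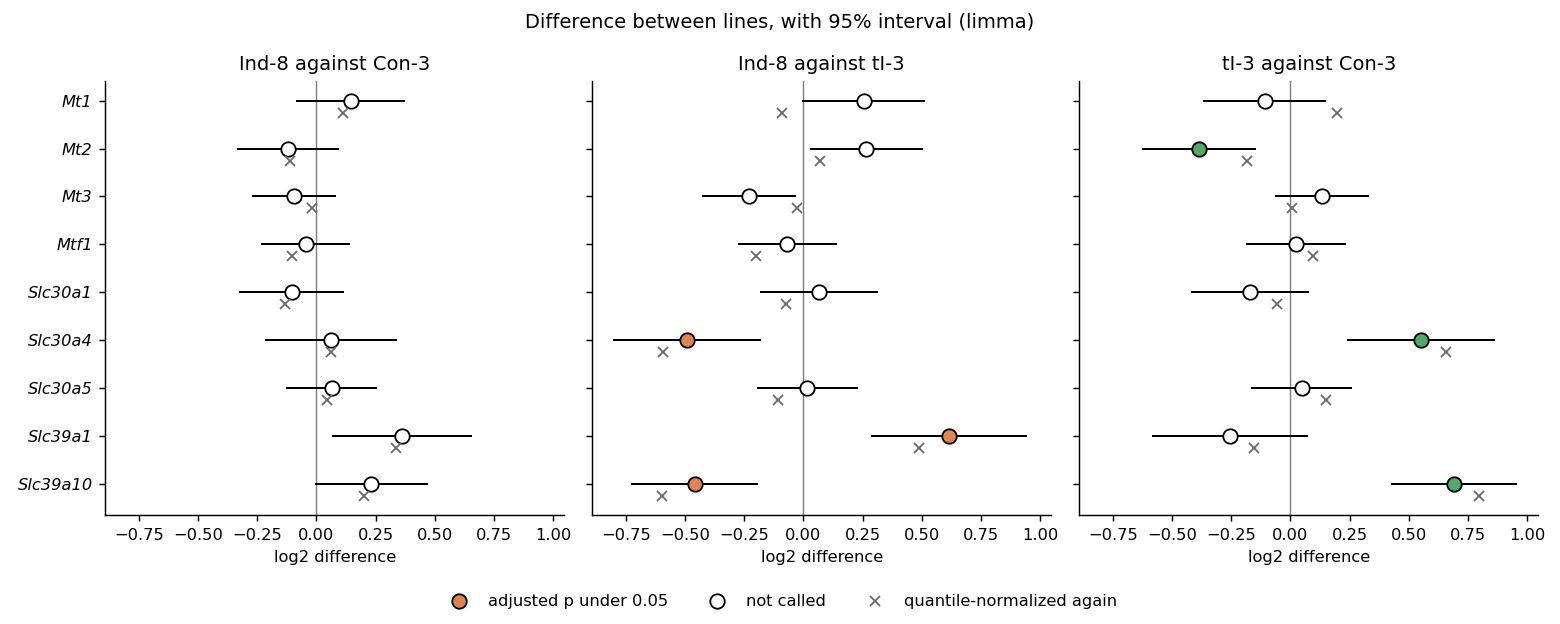
Log2 difference of each member in the 3 comparisons with its 95% interval from limma (filled circles have an adjusted p under 0.05, open circles do not, and crosses give the difference after the arrays were quantile-normalized again). Slc30a4 and Slc39a10 keep their differences from tI-3 after the second normalization, whereas the crosses of Mt1 lie on the other side of 0 in both comparisons with tI-3.

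Between arrays alike in their hybridization controls, the higher level compares 2 tI-3 arrays with Con-3 replicate 3. There the differences were 0.51 for Slc39a10, 0.57 for Slc30a4, −0.32 for Mt2, −0.24 for Slc39a1 and −0.02 for Mt1. The lower level compares 3 Ind-8 arrays with 2 Con-3 arrays, where the differences were 0.35 for Slc39a1, 0.32 for Slc39a10, −0.15 for Mt2 and 0.10 for Mt1.

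Over the 8 arrays, which fall into 3 lines, the genes outside the lists whose log2 profile was most like that of a called member were taken from 12262 profiles above the dim end. For Mt2 they were Rpl22 (Pearson r = 0.982), Ncoa7 (0.980) and Plpbp (0.974). For Slc39a10 they were Prxl2c (0.985), Smcr8 (0.978) and Tef (0.969). Slc30a4 was most like Trpm6 (0.967), Slc35a1 (0.967) and Ssbp2 (0.959), and Slc39a1 most like Slc66a1 (0.981), Tcf7l1 (0.962) and Rnf145 (0.956). With so many profiles and so few arrays, such values are a description. Among the members themselves, Slc30a4 and Slc39a10 had r = 0.849, Mt1 and Mt2 r = 0.648, and Mt2 and Slc39a10 r = −0.898.

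Of the 20 other metallothionein, ZnT and ZIP genes, 18 were measured, and 7 of these lay below the dim end. In A, 1 of 18 was called, against 21.9% of all probe sets. This was Slc39a11 (ZIP11), lower in Ind-8. After quantile normalization 3 were called, with Slc39a6 (−0.41, adjusted p = 0.0327) and Slc39a7 (0.25, adjusted p = 0.04) added, and 3 with the intensity trend or among probe sets above the 25th percentile. Of all 22523 probe sets, 22.2% were called after that normalization and 4989 with the trend, against 4942 in the main fit. Among those above the 25th percentile 5105 were called. Slc39a11 stood at 7.85, 7.81 and 7.78 in Ind-8, 8.24, 8.26 and 8.21 in Con-3 and 7.81 and 7.86 in tI-3, so that Con-3 lay above both other lines. The difference was −0.42 in A (standard error 0.0793, adjusted p = 0.00408) and −0.40 in C (adjusted p = 0.00831). In C its call was lost without tI-3 replicate 1 (−0.37, adjusted p = 0.0525) and with the control block (−0.37, adjusted p = 0.0758).

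In B, 6 of 18 were called, 4 higher and 2 lower in Ind-8, near the 31.1% of all probe sets. After quantile normalization 1 was called, against 25.5% of all probe sets, and with the control block 1, against 3.14%, Slc39a7 in both. With a replicate block 8 were called, against 37.0%. Slc39a7 (ZIP7), which releases zinc from the endoplasmic reticulum, stood at 11.24, 11.16 and 11.25 in Ind-8, 10.95, 10.98 and 10.98 in Con-3 and 10.50 and 10.44 in tI-3. The 3 lines were fully apart, with tI-3 lowest. Its difference was 0.75 in B (standard error 0.0896, adjusted p = 0.000351) and −0.50 in C (standard error 0.0896, adjusted p = 0.00267), and both were called with each array left out, after quantile normalization (0.63 and −0.38) and with the block (0.77 and −0.51). Slc39a13 (ZIP13), an importer of the secretory pathway, was higher in Ind-8 than in tI-3 by 0.48 (adjusted p = 0.0096), which was lost without tI-3 replicate 1 (0.42, adjusted p = 0.064), and in C it passed the threshold without Ind-8 replicate 3 (−0.33, adjusted p = 0.0415). Lower in Ind-8 were Slc39a5 (−0.45, adjusted p = 0.0226), lost without Ind-8 replicate 2 (−0.43, adjusted p = 0.0572), Ind-8 replicate 3 (−0.43, adjusted p = 0.0521) or tI-3 replicate 2 (−0.33, adjusted p = 0.181), and Slc39a4 (−0.42, adjusted p = 0.0329). The mean of Slc39a4, 4.09, lies below the dim end, and its call was lost without any 1 of the tI-3 arrays and of Ind-8 replicates 1 and 3, with adjusted p from 0.0879 to 0.127.

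In C, 4 of 18 were called, against 25.4% of all probe sets, with Slc39a4 higher and Slc39a6, Slc39a7 and Slc39a11 lower in tI-3. Slc39a6 (ZIP6), the closest relative of ZIP10, stood at 8.70, 8.98 and 8.93 in Ind-8, 9.47, 9.13 and 9.11 in Con-3 and 8.52 and 8.32 in tI-3. The tI-3 arrays were below all others, the opposite order to that of Slc39a10. Its difference in C was −0.82 (standard error 0.139, adjusted p = 0.00199), and the call held with each array left out (highest adjusted p = 0.0292), after quantile normalization (−0.70) and with the block (−0.69, adjusted p = 0.0378). Slc39a4 differed by 0.41 (adjusted p = 0.0421), and its call was lost in turn without Con-3 replicate 1 (0.34) or 2 (0.40), Ind-8 replicate 1 (0.41) and tI-3 replicate 1 (0.39) or 2 (0.42), with adjusted p from 0.051 to 0.149. It was also lost after quantile normalization (0.29, adjusted p = 0.133) and with the control block (0.26, adjusted p = 0.361). Mt4 lay below the dim end and was not called in any comparison by limma or the rank product test, and it had an unadjusted p above 0.05 in all 3.

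**Figure D4:**
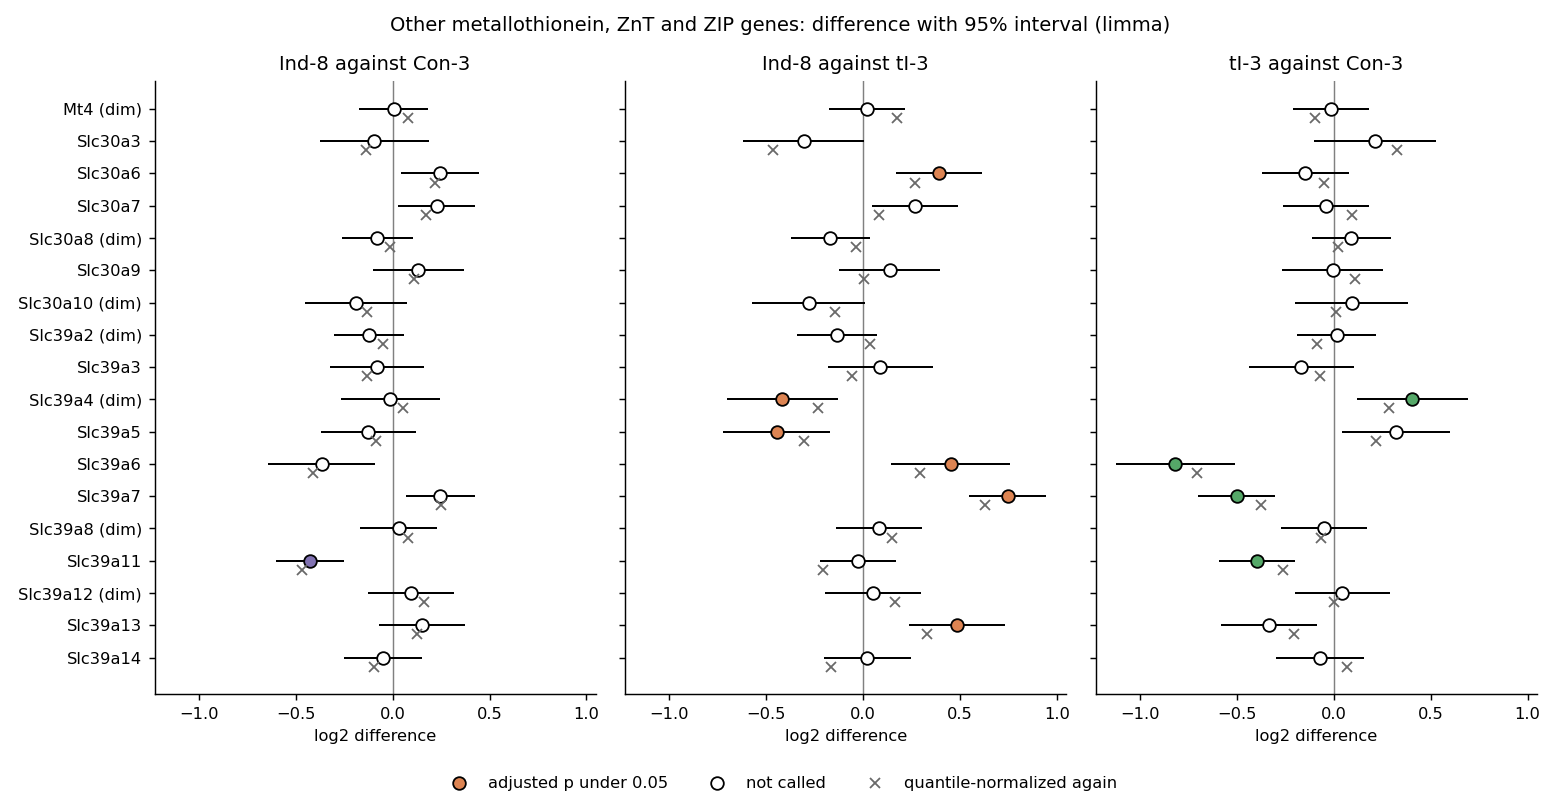
Log2 difference with its 95% interval from limma for the 18 other metallothionein, ZnT and ZIP genes in the 3 comparisons (filled circles have an adjusted p under 0.05, crosses are the differences after quantile normalization, and dim marks a mean below 4.30). Slc39a7 is apart in both comparisons with tI-3, Slc39a6 has the largest fall in tI-3 against Con-3, and Slc39a11 is the only gene called in Ind-8 against Con-3.

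Genes that respond to metals or oxidants beside the metallothioneins were also read. Hmox1, the heme oxygenase induced by metals, heme and oxidants, stood at 11.77, 11.66 and 10.98 in Ind-8, 9.54, 9.11 and 8.98 in Con-3 and 10.24 and 10.04 in tI-3. Every Ind-8 array was above every tI-3 array, and every tI-3 array above every Con-3 array. The difference was 2.25 in A (standard error 0.204, adjusted p = 7.94e-05), or 4.77-fold, 1.33 in B (adjusted p = 0.0025) and 0.93 in C (adjusted p = 0.0137). In C the call was lost without tI-3 replicate 1 (0.83, adjusted p = 0.0922) or 2 (1.03, adjusted p = 0.0552), and in B with the block (0.99, adjusted p = 0.194). With all arrays the means of Mt1 and Mt2 did not follow that order, although no Mt1 difference was called. Without tI-3 replicate 2 those of Mt1 did, at 0.10 in B and 0.04 in C.

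Of the 7 genes of this stress list, 3 were called higher and 0 lower in A, 1 higher and 1 lower in B, and 4 higher and 0 lower in C. Of all probe sets 10.9% were called higher and 11.0% lower in A, 15.6% and 15.5% in B, and 10.2% and 15.1% in C. In A, B and C, 4, 3 and 5 were called after quantile normalization, with the control block 3, 0 and 4, and by the rank product 1 in each. The shares of all probe sets were 22.2%, 25.5% and 23.8% after quantile normalization, 16.2%, 3.14% and 13.6% with the block and 3.58%, 1.96% and 2.30% by the rank product. Nfe2l2, the factor NRF2, averaged 10.04 ± 0.25 in Ind-8 (SD, n = 3), 9.22 ± 0.08 in Con-3 (SD, n = 3) and 9.95 ± 0.10 in tI-3 (SD, n = 2). Srxn1, a sulfiredoxin under NRF2, averaged 8.57 ± 0.18, 7.76 ± 0.12 and 8.79 ± 0.09. Both were higher on every Ind-8 and tI-3 array than on every Con-3 array, by 0.82 each in A and by 0.72 and 1.04 in C. Slc7a11, the cystine importer, rose from Con-3 to tI-3 by 1.50 (standard error 0.24, adjusted p = 0.00141) and was lower in Ind-8 than in tI-3 by a difference of −1.13 (adjusted p = 0.00674), the latter lost without tI-3 replicate 1 (−0.77, adjusted p = 0.0594) and with the control block (−0.86, adjusted p = 0.293). Gclm, Nqo1 and Txnrd1 were not called, although Txnrd1 passed the threshold without Con-3 replicate 1 in A (0.49, adjusted p = 0.0254) and C (0.53, adjusted p = 0.0243) and without Ind-8 replicate 3 in A (0.47, adjusted p = 0.0414). After quantile normalization Txnrd1 was called in A (0.39, adjusted p = 0.0412) and C (0.55, adjusted p = 0.0143), and Srxn1 in B (−0.36, adjusted p = 0.0437).

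**Figure D5:**
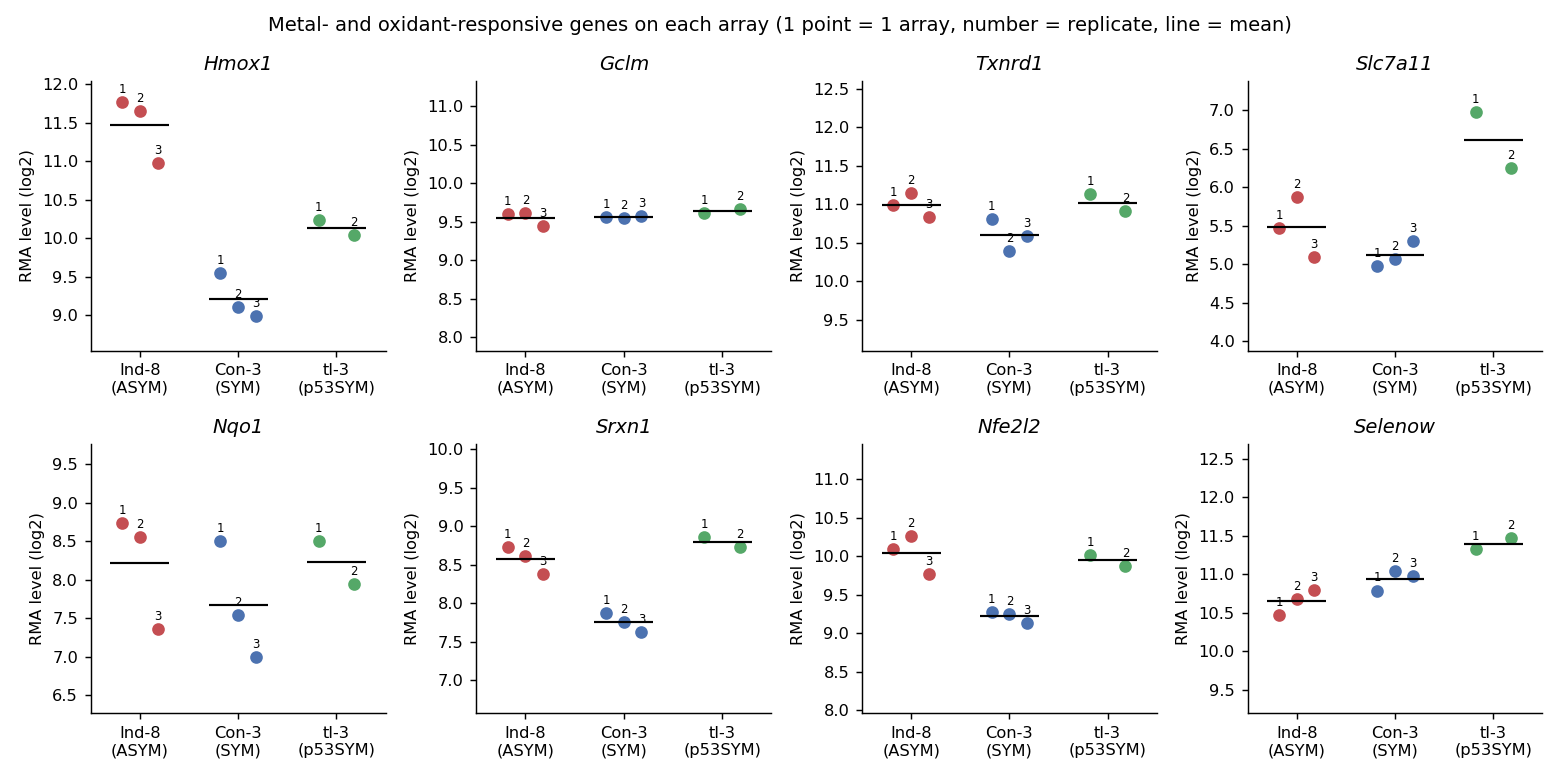
Log2 level of the 7 stress-responsive genes and of Selenow on each array, by line (points are arrays numbered by replicate, horizontal lines are means, and all panels span the same log2 range). Hmox1 falls from Ind-8 over tI-3 to Con-3 without overlap, Nfe2l2 and Srxn1 are lowest in Con-3, and Slc7a11 and Selenow are highest in tI-3.

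Of 4 further genes tied to MTF1, limma called 0 in A (1 at an unadjusted p under 0.05, and 0 by the rank product), 2 in B and 1 in C. The shares of all probe sets called were 21.9%, 31.1% and 25.4%. With the control block 0 were called in B and in C, where that fit called 3.14% and 13.6% of all probe sets. Selenow, a small selenoprotein, stood at 10.46, 10.68 and 10.80 in Ind-8, 10.79, 11.04 and 10.98 in Con-3 and 11.33 and 11.46 in tI-3. It was highest on the tI-3 arrays, with a difference of −0.75 in B (adjusted p = 0.00215) and 0.46 in C (adjusted p = 0.0216), the latter lost without Con-3 replicate 1 (0.39, adjusted p = 0.0618), tI-3 replicate 1 (0.53, adjusted p = 0.0515) or tI-3 replicate 2 (0.39, adjusted p = 0.151). Csrp1 was higher in Ind-8 than in tI-3 by 0.46 (adjusted p = 0.0295), which was lost after quantile normalization (0.34, adjusted p = 0.118), without Ind-8 replicate 3 (0.31, adjusted p = 0.0554) and without tI-3 replicate 1 (0.43, adjusted p = 0.118) or 2 (0.49, adjusted p = 0.111). In C it passed the threshold without Ind-8 replicate 3 (−0.40, adjusted p = 0.0152). Gclc was not called in any comparison, and neither was Ndrg1 with all arrays.

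Of 4 copper transport genes, which share metallothionein as a metal store, limma called 0 in A (0 at an unadjusted p under 0.05, and 0 by the rank product), 1 in B and 2 in C, against the same 21.9%, 31.1% and 25.4% of all probe sets. With the control block 0 were called in B and in C, against 3.14% and 13.6%. Slc31a1, the copper importer CTR1, differed by −0.61 in C (adjusted p = 0.0087), which was lost without tI-3 replicate 2 (−0.41, adjusted p = 0.102). Atp7b, a copper exporter whose mean of 4.27 lies at the dim end, differed by −0.48 in B (adjusted p = 0.0202) and 0.46 in C (adjusted p = 0.0253), and both calls were lost after quantile normalization (adjusted p = 0.112 and 0.0656) and without tI-3 replicate 2 (−0.35, adjusted p = 0.172, and 0.34, adjusted p = 0.21). In B the call was also lost without Ind-8 replicate 1 (−0.47, adjusted p = 0.0505) or 2 (−0.39, adjusted p = 0.0614), and in C without Con-3 replicate 2 (0.42, adjusted p = 0.0813). Calls were gained by Slc31a2 in B after quantile normalization (−0.29, adjusted p = 0.0471), by Slc31a1 in B without tI-3 replicate 1 (0.58, adjusted p = 0.0248) and by Atp7a in C without tI-3 replicate 2 (0.67, adjusted p = 0.0431).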

How the data were processed

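Levels were measured on 8 arrays, 3 of Ind-8, 3 of Con-3 and 2 of tI-3 cells. The authors summarized the scans by RMA with probes regrouped into RefSeq transcripts and deposited log2 levels, which RMA had already quantile-normalized. Of 22587 probe sets, 64 controls were left out of the tests, and 18294 of the other 22523 (81.2%) were named through RefSeq genes of GRCm38.p6. Gene coordinates and promoter windows come from that build. A gene with several profiles was read from the brightest one. limma 3.58.1 in R 4.3.3 (lmFit and eBayes) was fitted to the 3 line means over all arrays, because it gives errors and intervals, and p-values were adjusted by Benjamini-Hochberg. The rank product test of the methods was re-implemented with 100 permutations as an alternative. Both were tested on simulated data. The number of arrays limits the precision, and p-values measure the spread between preparations of 1 clone per state.

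Other alternatives were quantile normalization or median centring again, a trend in the prior, probe sets above the 25th percentile, distinct profiles once, the 2 compared lines alone, any profile of a gene, the replicate block, the hybridization-control block and each array left out. Text names all members, label-check genes, each measured gene of the MTF1, stress and copper lists as needed, the 2 largest called rises and falls of the other zinc genes per comparison, and the 3 most similar genes per called member. Slc39a11 in the C comparison lies outside that rule and was named after its values were seen. Members and lists were chosen with earlier results of these data known. Figures were drawn with matplotlib 3.10.9 in Python 3.11.15.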

Additional observations from a re-analysis of the deposited data

Results flagged for a closer look

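The 18S rRNA control probe set of the 3′ region, which enters no comparison, stood at 11.38 (log2) on Con-3 replicate 3, above the 6.86 and 7.07 of the other Con-3 arrays. The same array had the second highest mean of the hybridization controls, 10.44. Without it the members called numbered 0 in the A, 3 in the B and 3 in the C comparison, as with all arrays.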

How the results depend on the processing

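Of 216 values of single members with 1 array left out, 198 kept their direction and side of the threshold, 11 lost the call, 1 gained it and 6 turned sign. Part of this count is fixed by construction. A difference between 2 lines does not use the other line's arrays, so leaving those out cannot turn its sign. Most member differences were not called with all arrays, and most of these kept their side by staying uncalled. Of 216 values under the other limma settings, 202 kept direction and side of the threshold, 6 lost the call, 1 gained it (Mt2 in the B comparison, with the intensity trend) and 7 turned sign. The trend, the filter at the 25th percentile, distinct profiles once and the 2 compared lines alone leave each difference unchanged, so its sign cannot turn. In A the control block gives the same values as the fit without Con-3 replicate 3. The 202 is therefore no measure of stability. With arrays quantile-normalized again, Mt1 turned to −0.0887 in B and 0.199 in C, Slc30a1 to −0.075 and Slc30a5 to −0.109 in B. The hybridization-control block turned Mtf1 to 0.0573 in B and −0.0605 in C and Slc30a1 to −0.132 in B. With 1 array left out, sign changes fell in ranges of −0.0802 to 0.152 for Slc30a4 in A, −0.0371 to 0.0701 for Slc30a5 in B, −0.00610 to 0.101 for Slc30a5 in C, −0.263 to 0.0443 for Mt1 in C and −0.0276 to 0.0651 for Mtf1 in C. None of these differences was called. Members called with 1 array left out ranged from 0 to 1 in A, 1 to 3 in B and 1 to 3 in C. The hybridization-control block left 0 in B and 1 in C, and the rank product test 0 in B and in C. For the other zinc genes in A, quantile normalization, the intensity trend and the filter at the 25th percentile gave 3 each and the rank product 0, against 1. In B, quantile normalization and the hybridization-control block gave 1 each, the rank product 0, single arrays left out 2 to 6 and the replicate block 8, against 6. In C, the block gave 2, the rank product 0 and single arrays left out 2 to 5, against 4. Over all probe sets, the rank product called 806 in A, 442 in B and 518 in C, against 4942, 7009 and 5715 by limma. The replicate block called 5382, 8341 and 6376. The hybridization-control block called 708 in B and 3066 in C, and single arrays left out gave 2781 to 7261 in B and 3093 to 5625 in C, lowest without tI-3 replicate 2. The causes were not tested, except that the smaller sets have fewer arrays or probe sets by construction. Same-numbered Ind-8 and Con-3 arrays correlated in their deviations at 0.27, 0.029 and 0.381, against −0.408 to 0.117 for differently numbered ones. For tI-3, same-numbered values were 0.009 and −0.225 with Ind-8 and 0.205 and 0.042 with Con-3. The main fit did not pair arrays by number, and whether same-numbered arrays share a batch was not tested. The fit with a replicate block called 0, 3 and 3 members in A, B and C. Levels near the dim end, such as Mt3, limit what a difference can show.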

Other observations

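Ndrg1, 1 of the genes tied to MTF1, stood at 8.60 on Con-3 replicate 1 and at 9.37 and 9.27 on the other Con-3 arrays, with 8.79, 8.93 and 8.81 in Ind-8 and 8.61 and 8.46 in tI-3. It was called in no comparison with all arrays. Without Con-3 replicate 1 it passed the threshold in all 3, at −0.48 in A (limma adjusted p = 0.0111), 0.31 in B (adjusted p = 0.0441) and −0.79 in C (adjusted p = 0.00141). The cause of the low value was not tested.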
